A study of Homo sapiens with 32 samples.

Results

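The glycerol-3-phosphate dehydrogenase genes GPD1L, GPD1 and GPD2 were followed in endometrial cancer cell lines treated with the CLK inhibitor SM08502. They are 3 of the 35238 genes measured, and were taken by gene symbol. GPD1L was chosen from these data because its transcript fell most consistently with SM08502, and GPD1 and GPD2 because they are related to it in sequence or in function. The difference between SM08502 and vehicle in GPD1L is therefore given as a description, without a test. GPD1L was tested in the combination of SM08502 and paclitaxel against paclitaxel alone, whose libraries do not enter that difference. Members and tests were chosen with earlier results of these data known, so this test is not fully independent of the choice.

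RNA sequencing covered 32 libraries from 4 lines under 4 treatments of 24 h, with 2 replicates in each of 16 groups. Ishikawa is labelled CTNNB1-wildtype, CTNNB1 being the gene of beta-catenin, and Ishikawa-S33Y, SNGM and HEC265 are labelled CTNNB1-mutated. Every group was plated in duplicate, the vehicle was 0.1% DMSO, and each line received either drug at its own dose for 50% inhibition of viability. Paclitaxel, a taxane that stabilises microtubules, was given at 11 nM to Ishikawa, 6 nM to Ishikawa-S33Y, 11.7 nM to SNGM and 5.6 nM to HEC265. SM08502 is an inhibitor of CLK, the CDC-like kinase family that acts on SR proteins of pre-mRNA splicing. It was given at 80 nM to Ishikawa, 85 nM to Ishikawa-S33Y, 350.7 nM to SNGM and 149 nM to HEC265, and the combination held both drugs at these doses. RNA input was 350 ng for Ishikawa and 500 ng for the other lines, so dose and input cannot be told apart from the line. Each line is 1 culture model, and the p-values measure the spread between duplicate platings.

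Glycerol 3-phosphate links glycolysis to the respiratory chain and to lipid synthesis. In the cytosol, GPD1 reduces the glycolytic intermediate dihydroxyacetone phosphate to glycerol 3-phosphate with NADH. GPD2, a flavoprotein of the inner mitochondrial membrane, oxidises glycerol 3-phosphate back and passes the electrons to ubiquinone, which together makes the glycerol phosphate shuttle. Glycerol 3-phosphate is also the backbone on which phospholipids and triglycerides are built. GPD1L is a cytosolic homologue of GPD1. It is known as a target of the hypoxia-induced microRNA miR-210.

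GPD1L lies on chromosome 3 from 32106620 to 32168709, GPD1 on chromosome 12 from 50104008 to 50111313, and GPD2 on chromosome 2 from 156400281 to 156586403, in the RefSeq table of GRCh38.p14. The 250 bases before the GPD1L start, at chr3:32106370-32106619 on the plus strand, are shown because GPD1L is the gene that the results turn on. Capitals mark matches to ACGTG, a form of the core of the hypoxia response element, to GGGCGG, the GC box, and to CCAAT. Each was searched on both strands, and other forms of that core were not searched.
GPD1L promoter: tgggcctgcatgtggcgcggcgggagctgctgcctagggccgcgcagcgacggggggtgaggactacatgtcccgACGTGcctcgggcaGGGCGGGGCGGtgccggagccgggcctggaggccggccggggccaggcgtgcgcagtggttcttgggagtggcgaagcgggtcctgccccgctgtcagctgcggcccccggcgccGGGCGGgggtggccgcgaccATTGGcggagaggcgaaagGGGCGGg
These letters hold 1 ACGTG match, 4 GGGCGG matches and 1 CCAAT match. The CCAAT match is on the minus strand, and the first pair of GGGCGG matches shares 1 base. In windows of 300 bases that also take in the 50 bases after the start, ACGTG occurred in 21.4% of the 35116 RefSeq promoters, GGGCGG in 45.0% and CCAAT in 34.6%. The GPD1L window of that length held the same matches, and neither TATAAA nor the E-box CACGTG. Its GC content was 77.7%, higher than that of 94.6% of the promoters, whose median was 58.7%. A match is a description of the letters and not a bound site, and binding was not measured here.

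Depth, read back from the deposited values, was 13.03 to 34.1 M reads in 30 libraries (median 21.7 M, where 1 M is 1000000 reads). The other two were the second replicate of the combination in Ishikawa-S33Y, with 2.99 M reads, and in SNGM, with 1.61 M reads. The labelled cell type was checked on marker genes. Of 10 epithelial and endometrial genes, among them the epithelial adhesion molecule EPCAM and the keratin KRT8, 8 to 10 had a median above 1 CPM (reads of a gene in a library scaled to 1000000 reads) in each line. The estrogen-regulated receptor gene PGR and the transcription factor gene SOX17 stayed under 1 CPM in all SNGM libraries, as did ESR1 and PGR in HEC265. Of 6 immune and endothelial genes, 2 to 4 had a median above 1 CPM in each line, and the list summed to 9.36 to 52.9 CPM over the libraries. The lysosomal and macrophage gene CD68 had the highest medians except in Ishikawa-S33Y, at 4.17 CPM there and 19.3 to 22.7 CPM elsewhere. VWF was at 6.98 CPM in Ishikawa-S33Y, and CD3E and CDH5 stayed under 1 CPM in all 32 libraries. Of 6 stromal genes, 1 to 3 had a median above 1 CPM. The collagen gene COL1A1 had a median of 971 CPM in Ishikawa-S33Y, 66.4 in Ishikawa, 4.17 in HEC265 and 1.23 in SNGM, whereas PDGFRB and LUM had medians under 1 CPM in every line. The part of these markers in the results was not tested.

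GPD1L was lower in every library that received SM08502, alone or with paclitaxel, than in every library that did not. In the 16 libraries without SM08502 it ranged from 35.5 to 60.5 CPM (median 48.9). In the 16 libraries with SM08502 it ranged from 6.69 to 19.9 CPM (median 12.9). No line overlapped between these arms. The vehicle and SM08502 libraries among them are those of the comparison that chose GPD1L, so this separation is a description. The share of all genes that separated in the same way was not computed. The values are shares of the reads of a whole culture, so fewer cells with the transcript and less transcript per cell cannot be told apart.

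In Ishikawa, GPD1L was at 55.1 and 51.7 CPM on vehicle, 53.5 and 47.4 on paclitaxel, 16.6 and 16.7 on SM08502, and 16.0 and 13.4 on the combination. SM08502 thus left 31.2% of the vehicle mean, and the combination 29.2% of the paclitaxel mean. In Ishikawa-S33Y the 2 replicates were at 59.3 and 57.8 CPM on vehicle and at 54.6 and 60.5 on paclitaxel. They were at 12.95 and 12.8 CPM on SM08502 and at 9.09 and 15.4 on the combination. The last value rests on 46 GPD1L reads in the shallow library, and the means with SM08502 were 22.0% of vehicle and 21.3% of paclitaxel.

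SNGM had the lowest starting level and kept the largest share of it. GPD1L was there at 42.8 and 35.5 CPM on vehicle, 43.7 and 39.8 on paclitaxel, 11.2 and 17.5 on SM08502, and 12.3 and 19.9 on the combination. The value of 19.9 CPM rests on 32 reads in the shallow library. SM08502 left 36.8% of vehicle and the combination 38.6% of paclitaxel. The lowest levels were in HEC265, with 46.4 and 49.2 CPM on vehicle, 47.7 and 48.6 on paclitaxel, 8.62 and 9.77 on SM08502, and 8.78 and 6.69 on the combination. In that line 19.2% of vehicle and 16.1% of paclitaxel remained.

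**Figure D1:**
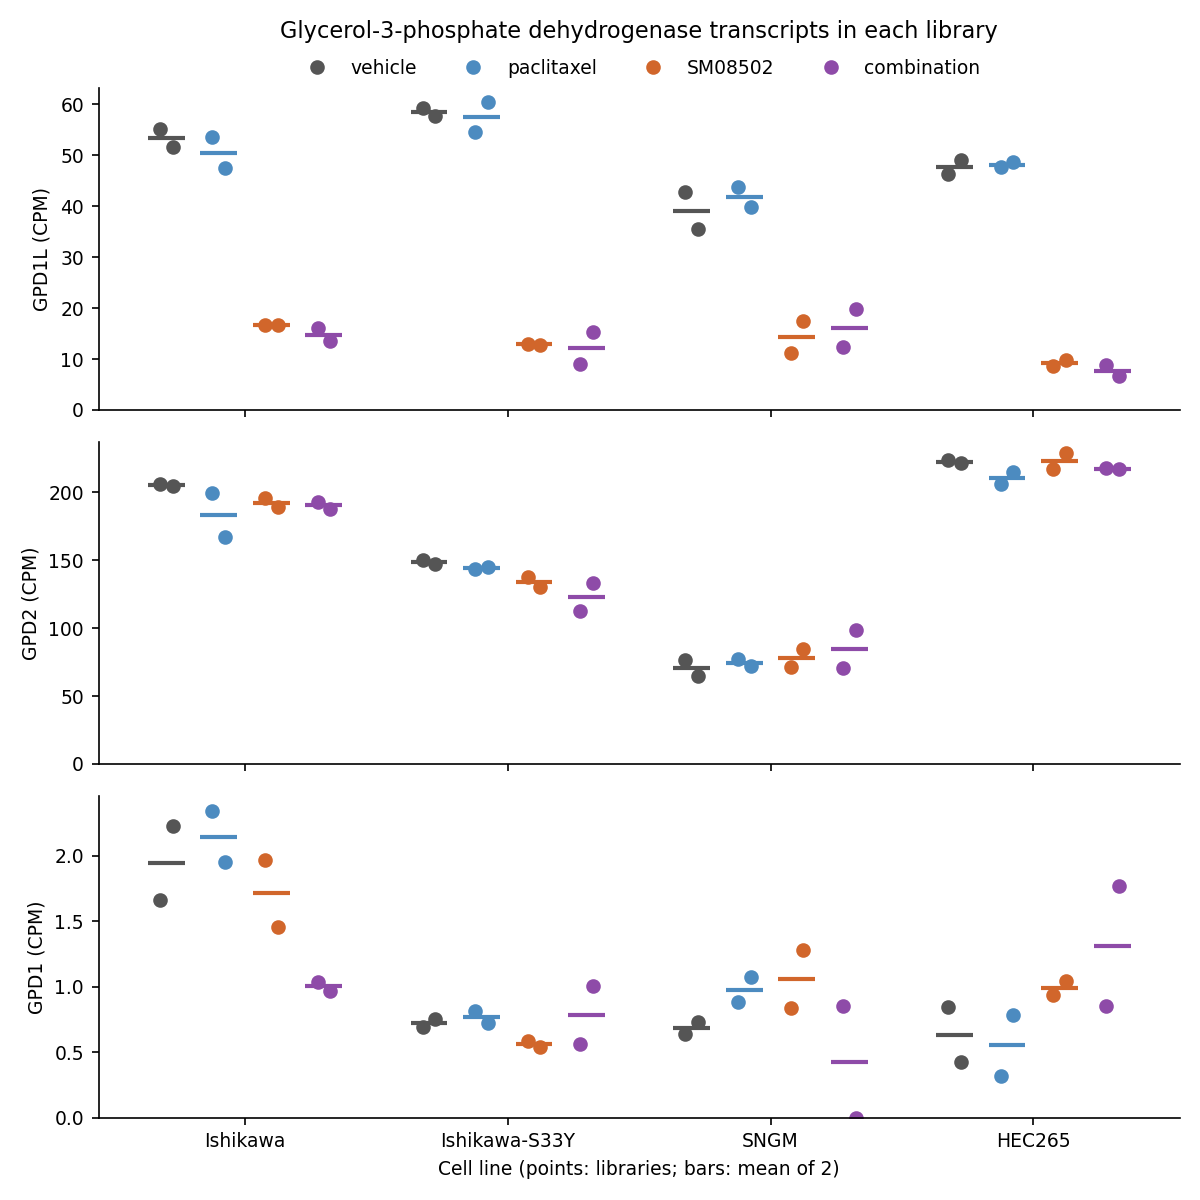
CPM of GPD1L, GPD2 and GPD1 in each of the 32 libraries, by cell line on the x axis and treatment by colour. Points are libraries and bars the mean of 2. GPD1L lies at 35.5 to 60.5 CPM without SM08502 and at 6.69 to 19.9 CPM with it, whereas GPD2 shifts between lines more than between treatments, and GPD1 reaches at most 2.34 CPM.

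As a description of the comparison that chose the gene, GPD1L with SM08502 minus vehicle was at -1.62 log2 units in Ishikawa, -2.10 in the S33Y line, -1.41 for SNGM and -2.26 for HEC265, on the log2(CPM + 1) scale. The mean over lines was -1.85 (SE 0.11), beside a median of 0.05 over the 17011 genes tested. In that comparison 15.8% of all genes were called lower at an adjusted p under 0.05. GPD1L had the largest mean fall of these genes. Ranked by the smallest fall in any line it came after HYAL3, a hyaluronidase gene, and before ITGB5, an integrin gene. The lowest fall of GPD1L was that in SNGM, and 9 genes fell by at least 1 log2 unit in every line.

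In the libraries outside the SM08502 minus vehicle comparison, GPD1L fell with the combination relative to paclitaxel alone in all 4 lines. The spread in this test was estimated from all 32 libraries, which include those of that comparison. By limma with Benjamini-Hochberg adjustment over 17011 genes, the mean over lines was -1.94 log2 units (95% interval -2.16 to -1.72, adjusted p = 2.12e-11). The difference was -1.71 in Ishikawa (SE 0.21), -2.18 in the Ishikawa-S33Y line, -1.36 in SNGM and -2.50 in HEC265. Adjusted p by limma was 2.70e-05, 1.39e-07, 2.28e-04 and 1.70e-07 in that order. Calls were common in this comparison, since 19.1% of all genes were called lower in the mean over lines, and 6.14%, 17.4%, 6.60% and 6.53% in the same 4 lines. By size, GPD1L had the second largest mean fall of the 17011 genes, after HYAL3. By its smallest fall in any line it came after HYAL3, LRP5 and ITGB5. Estimated from the samples of SNGM alone, with the spread of 8 libraries, the difference in SNGM was unchanged at -1.36 and had a limma adjusted p of 0.0832.

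GPD1L did not differ detectably with paclitaxel. The 2 replicates of paclitaxel and vehicle overlapped in each line, and the paclitaxel means were 94.5% to 106.7% of the vehicle means. The mean difference over lines was -0.0002 log2 units (95% interval -0.22 to 0.22, limma adjusted p = 1). No gene was called by limma in that comparison (0% of 17011, with 480 at an unadjusted p under 0.05), and limma voom on recovered reads also called 0. Adding paclitaxel to SM08502 gave a difference of -0.09 (95% interval -0.31 to 0.13, limma adjusted p = 0.748), in a comparison where 0.0470% of genes were called. These 2 comparisons share the vehicle or the SM08502 libraries with the one that chose GPD1L.

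**Figure D2:**
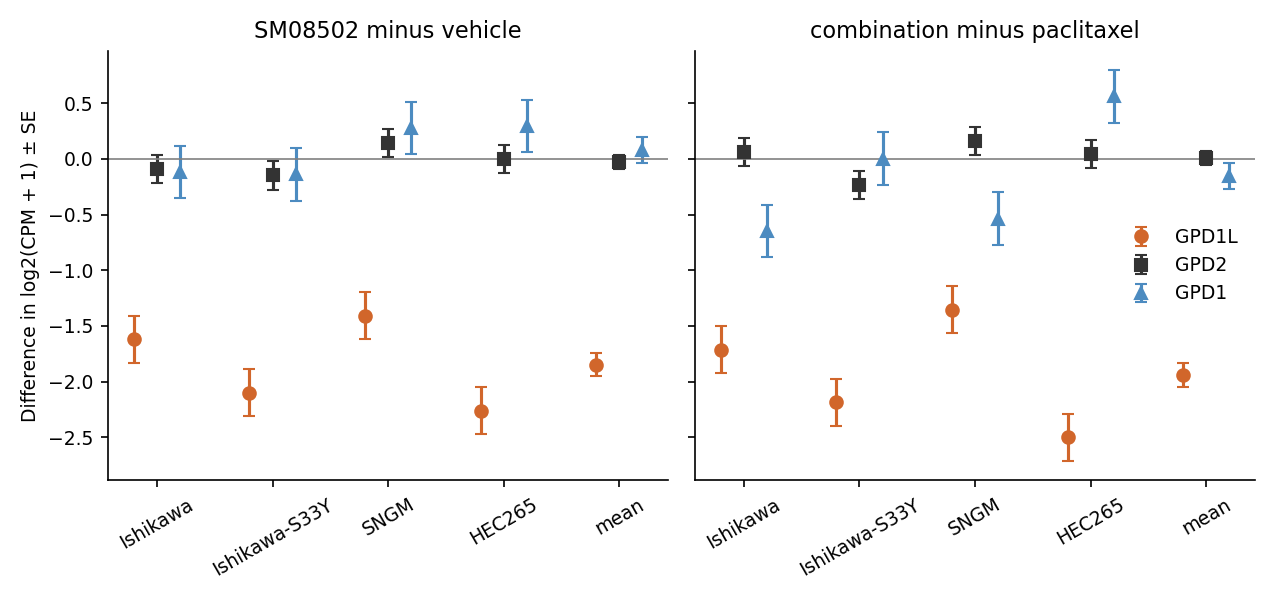
Difference in log2(CPM + 1) for SM08502 minus vehicle (left, description only) and for the combination minus paclitaxel (right, tested), by line and as the mean over lines. Points are limma estimates and bars their SE. GPD1L lies between -1.36 and -2.50 in every line of both panels, and the GPD2 points lie between -0.23 and 0.16.

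The size of the fall varied among lines. The largest contrast was that of HEC265 with SNGM, where the combination minus paclitaxel difference was lower in HEC265 by 1.15 log2 units (SE 0.30, limma adjusted p = 0.0361, where 3.43% of genes were called). SNGM differed from Ishikawa-S33Y by 0.83 (limma adjusted p = 0.0541), and HEC265 from Ishikawa by -0.79 (adjusted p = 0.193). The other 3 of the 6 pairs had limma adjusted p from 0.348 to 0.558. Over all genes, 20.2% were called for SNGM against Ishikawa-S33Y, 2.35% for HEC265 against Ishikawa, and 9.31%, 3.37% and 12.4% for Ishikawa-S33Y against Ishikawa, SNGM against Ishikawa and HEC265 against Ishikawa-S33Y. The call for HEC265 against SNGM was lost when any 1 of 6 libraries was left out, namely both SNGM paclitaxel, both HEC265 paclitaxel, or the second combination replicate of either line (-1.21 to -0.82, limma adjusted p 0.0770 to 0.196). Without both shallow libraries the difference between SNGM and Ishikawa-S33Y was called instead (0.85, limma adjusted p = 0.0346), as were Ishikawa-S33Y against Ishikawa (-0.82, 0.0322) and HEC265 against Ishikawa (-0.79, 0.0381). Dose differed between these lines as given above.

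On vehicle alone, the order of GPD1L levels was Ishikawa-S33Y (58.6 CPM ± 1.11, SD, n = 2), Ishikawa (53.4 ± 2.40), HEC265 (47.8 ± 1.96) and SNGM (39.1 ± 5.19). Neighbours in this order did not differ beyond their spread by limma, with adjusted p from 0.267 to 0.648. Of the 6 pairs, SNGM against Ishikawa-S33Y passed the threshold (-0.58 log2 units, limma adjusted p = 0.0228), in a comparison where 60.8% of genes were called. In the other 5 pairs 48.3% to 66.8% were, with 58.0% for HEC265 against Ishikawa-S33Y and 54.9% for HEC265 against SNGM. That call was lost without either Ishikawa-S33Y vehicle replicate (-0.59 and -0.56) or without the second SNGM vehicle replicate (-0.44), with limma adjusted p of 0.0678 to 0.164. Ishikawa-S33Y and Ishikawa, which the labels separate by CTNNB1 status, differed in GPD1L by 0.13 (95% interval -0.31 to 0.57, limma adjusted p = 0.648).

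GPD2, the mitochondrial partner in the shuttle, kept most of its level where GPD1L fell. In Ishikawa it was at 206 and 205 CPM on vehicle, 199 and 167 on paclitaxel, 196 and 189 on SM08502, and 193 and 188 on the combination. In Ishikawa-S33Y its replicates were at 150 and 147, 143 and 145, 138 and 130, and 112 and 133 CPM, in the same order of treatments. In that line both SM08502 arms were below both others, but by far less than for GPD1L.
SNGM had GPD2 at 76.9 and 64.6 CPM on vehicle, 77.1 and 71.9 on paclitaxel, 71.7 and 84.7 on SM08502, and 70.3 and 98.9 on the combination, the last from 159 reads. In HEC265 the 8 libraries lay between 206 and 229 CPM. Treatments overlapped in SNGM, and SM08502 overlapped with vehicle in HEC265. The combination lay above paclitaxel in HEC265 (218 and 217 CPM against 206 and 215), and SM08502 lay below vehicle in Ishikawa. Paclitaxel alone also lay below vehicle in Ishikawa, Ishikawa-S33Y and HEC265, at 89.1%, 97.0% and 94.6% of the vehicle mean. The share of all genes whose 2 replicates separated in such ways was not computed.

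For the combination minus paclitaxel, GPD2 differed by 0.06 log2 units in Ishikawa, -0.23 in the S33Y line, 0.16 for SNGM and 0.04 for HEC265, and none was called by limma, where 14.4%, 39.4%, 15.9% and 14.9% of all genes were called in these lines in either direction. Adjusted p was 0.154 in Ishikawa-S33Y and higher in the other lines. Without both shallow libraries GPD2 was lower in Ishikawa-S33Y by 0.36 and called (limma adjusted p = 0.0236), and in SNGM the sign turned (-0.08). In SNGM the call depended on which replicate stayed, being 0.41 (limma adjusted p = 0.0163) with the shallow combination library alone. The mean over lines was 0.01 (95% interval -0.12 to 0.14, limma adjusted p = 0.926). For SM08502 minus vehicle the 4 differences were -0.09, -0.15, 0.14 and 0.00, given as a description.

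Whether GPD1L and GPD2 changed unequally was tested on their log2 ratio within each library, which uses the change of the ratio and not its level, since CPM is not scaled by transcript length. In libraries without SM08502 the ratio ranged from -2.25 to -0.81 (median -1.58), and with it from -4.83 to -2.21 (median -3.45). The lowest ratios were in HEC265 and the highest in SNGM, in both arms. From paclitaxel to the combination the ratio changed by -1.78 log2 units in Ishikawa, -1.95 in the S33Y line, -1.52 in SNGM and -2.55 in HEC265. The mean was -1.95 and lower in 4 of 4 lines (two-sided exact permutation test within lines, p = 0.00154, the smallest that 1296 arrangements can give). GPD1L was chosen for its fall with SM08502, and GPD2 differed little in these libraries. The outcome of this test was thus largely set by the fall of GPD1L, and it adds no independent result.

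GPD2 differed more between lines than with treatment. On vehicle HEC265 (223 CPM ± 1.45, SD, n = 2) and Ishikawa (205 ± 0.98) did not differ detectably by limma (0.12 log2 units, 95% interval -0.15 to 0.38, adjusted p = 0.448). Ishikawa-S33Y (149 ± 1.99) was lower than Ishikawa by 0.46 (limma adjusted p = 0.00460), in a comparison where 48.3% of genes were called. SNGM (70.7 ± 8.66) was the lowest, 1.07 log2 units under Ishikawa-S33Y (limma adjusted p = 2.31e-07). The order of the lines for GPD2 was thus not that for GPD1L.

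GPD1, the cytosolic enzyme of the shuttle, was close to the limit of detection. It ranged from 0 to 2.34 CPM (median 0.855) and from 0 to 37 reads per library. The library at 0 was the shallow combination replicate of SNGM, where 3 reads, the limit that a count of 0 allows, correspond to 1.87 CPM. In Ishikawa, GPD1 was at 1.66 and 2.23 CPM on vehicle, 2.34 and 1.95 on paclitaxel, 1.97 and 1.46 on SM08502, and 1.04 and 0.970 on the combination. The other lines ranged from 0 to 1.77 CPM.

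On vehicle, GPD1 was higher in Ishikawa (1.95 CPM ± 0.40, SD, n = 2) than in each other line. The differences were -0.77 log2 units for Ishikawa-S33Y, -0.80 for SNGM and -0.85 for HEC265, with limma adjusted p of 0.0102, 0.00514 and 0.00330. With a pseudocount of 0.1 CPM the first pair was lost (adjusted p = 0.108 and 0.0671). With quantile normalization HEC265 minus Ishikawa turned to 0.0028 (limma adjusted p = 0.992) and SNGM minus Ishikawa was no longer called (-0.46, 0.0644). Each call also rested on single vehicle libraries, being lost without the second Ishikawa replicate for the first pair (-0.63 and -0.66), without the first of Ishikawa-S33Y (-0.74) and without the second of HEC265 (-0.67). The share of all genes called was 48.3%, 66.8% and 63.3%. For the combination minus paclitaxel no line was called by limma. GPD1 differed by -0.65 in Ishikawa (adjusted p = 0.0699), 0.00 in the S33Y line, -0.54 for SNGM (0.127) and 0.56 for HEC265 (0.123), and the mean was -0.15 (95% interval -0.40 to 0.09, limma adjusted p = 0.301). In Ishikawa the combination replicates lay below both paclitaxel replicates, at 46.8% of their mean. How many of all genes separated so was not computed. Without both shallow libraries the differences in Ishikawa and HEC265 were called (limma adjusted p = 0.0153 and 0.0324). Those in SNGM (-0.98) and in the mean (-0.27) were called where the first SNGM combination replicate was left out, which leaves the library with 0 reads.

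The genes around GPD1L changed in both directions and by less than GPD1L in every line. Its nearest protein-coding neighbours at lower coordinates are OSBPL10, an oxysterol-binding protein gene whose end lies at -28.9 kb from the GPD1L start, and ZNF860, a zinc finger gene. At higher coordinates they are CMTM8 and CMTM7, whose starts are 69.5 and 223.1 kb away. In the combination minus paclitaxel, mean over lines, OSBPL10 fell by 0.40 (limma adjusted p = 3.99e-05). ZNF860 rose by 0.35 (adjusted p = 0.00260) and CMTM8 by 0.22 (adjusted p = 0.0359), both by limma. The CMTM8 call was lost in 10 of 41 alternatives, 9 of them leaving out 1 library (limma adjusted p up to 0.108). CMTM7 differed by 0.00 (limma adjusted p = 0.976).
OSBPL10 was at 32.3 to 138 CPM over all libraries and ZNF860 at 2.93 to 10.4. The pseudogene RPL21P137 overlaps GPD1L in RefSeq and has no row of its own in the table. The strand of counting is not given in the sources used here, so reads of overlapping genes cannot be told apart. GPD2 overlaps tRNA and small nucleolar RNA genes that have no row either, and the start of COX14 lies 0.923 kb beyond GPD1.

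**Figure D3:**
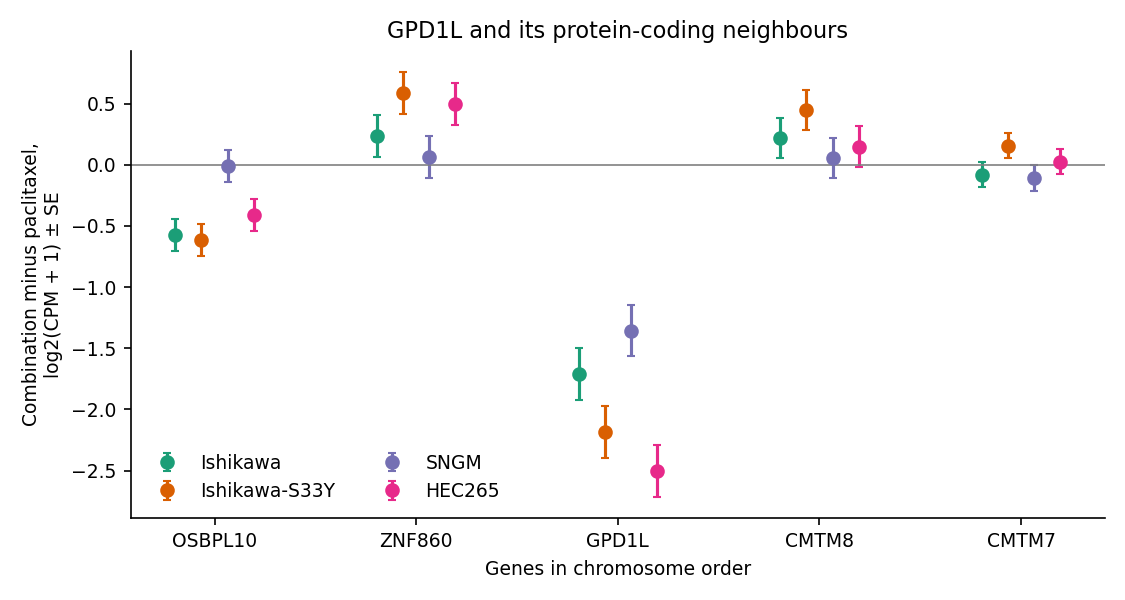
Difference in log2(CPM + 1), combination minus paclitaxel, for GPD1L and its 4 nearest protein-coding neighbours in chromosome order, by line. Points are limma estimates and bars their SE. GPD1L lies at -1.36 to -2.50, while the neighbours lie between -0.61 and 0.59.

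Other genes that supply glycerol 3-phosphate were not called in the mean over lines, and 3 were called within single lines. The list held the glycerol kinase GK, its relative GK5, the triokinase TKFC and the aquaglyceroporins AQP3, AQP7, AQP9 and AQP10, which let glycerol through the membrane. Of the 7, AQP10 was too low to be tested. In the mean over lines none of the 6 others was called by limma, and none had an unadjusted p under 0.05, with SM08502 or with the combination relative to paclitaxel. By limma voom 1 was called in the latter, and without both shallow libraries 1 was called in each. Within lines, TKFC was lower in Ishikawa-S33Y (-0.44 with SM08502, -0.46 with the combination) and higher in SNGM (0.60 and 0.62). With the combination, GK was also lower in Ishikawa-S33Y (-0.54) and AQP9 in SNGM (-0.71). In SNGM 3.80% and 9.28% of all genes were called higher in these 2 comparisons. In Ishikawa-S33Y 10.6% and 17.4% were called lower, and in SNGM 6.60% were with the combination. These within-line genes were named after their values were seen. In the mean over lines their differences ran from -0.18 (GK, limma adjusted p = 0.139) to 0.02 (TKFC) for the combination minus paclitaxel, where 44.8% of all genes were called, and their median was -0.08 beside 0.03 over all genes.

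Genes listed for the acylation of glycerol 3-phosphate and for glycerolipid synthesis moved in both directions. Of 15 listed genes 14 were tested. With SM08502 relative to vehicle, 5 rose and 3 fell, where 38.5% of all genes were called, 22.6% higher and 15.8% lower. With the combination relative to paclitaxel, 5 rose and 5 fell, where 25.7% of all genes were called higher and 19.1% lower. One of those that rose there was PGP, a phosphatase on the list and not an enzyme of lipid synthesis (0.24, limma adjusted p = 0.0114). DGAT1, which makes triglyceride from diacylglycerol, ranged from 19.4 to 32.7 CPM on vehicle and from 24.7 to 51.3 on SM08502. It rose by 0.64 log2 units with SM08502 (limma adjusted p = 1.30e-08) and by 0.77 with the combination relative to paclitaxel (9.67e-10), and was higher in 4 of 4 lines in both.
GPAT3, an acyltransferase that takes glycerol 3-phosphate as its substrate, rose by 0.29 and 0.46 in these 2 comparisons, and was higher in 3 of 4 lines. Its call with SM08502 was lost with quantile normalization (limma adjusted p = 0.0856), without the second Ishikawa vehicle replicate (0.0613) and without the first of Ishikawa-S33Y (0.0545). DGAT2 rose by 0.23 with SM08502 and differed by 0.15 in the other (limma adjusted p = 0.113). The first call was lost without the second SM08502 replicate of Ishikawa-S33Y (0.0503). The second difference was called with limma voom (0.0233), without both shallow libraries (0.0116) and without the shallow SNGM library alone (0.00779). AGPAT1, the next acyltransferase of the pathway, fell by 0.50 and 0.54, the lipin phosphatase LPIN2 by 0.38 and 0.37, and AGPAT5 by 0.25 and 0.30. AGPAT1 was lower in 3 of 4 lines, and AGPAT5 in 4 of 4. Within lines, GPAT3 (1.14 and 1.28), DGAT2 (0.71 and 0.45) and AGPAT5 (-0.65 and -0.84) were called in Ishikawa-S33Y alone. The lowest GPAT3 differences of any line were -0.38 and -0.15. AGPAT1 and LPIN2 were called in no line other than Ishikawa and Ishikawa-S33Y. Called lower were 8.68% and 6.14% of all genes in Ishikawa, and 10.6% and 17.4% in Ishikawa-S33Y, where 39.4% were called either way with the combination. The list's median was -0.01 with SM08502 and 0.04 with the combination, beside 0.05 and 0.03 over all genes.

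Glycolysis yields the dihydroxyacetone phosphate that GPD1 reduces. Of its 17 genes tested, 12 fell with SM08502 and the other 5 were not called, and 11 fell with the combination relative to paclitaxel and the other 6 were not called. Over all genes 15.8% and 19.1% were called lower in these comparisons. The platelet-type phosphofructokinase PFKP fell by 0.74 and 0.92, hexokinase HK2 by 0.68 and 0.70, and muscle-type phosphofructokinase PFKM by 0.63 and 0.74. Each was lower in 4 of 4 lines in both comparisons. PFKP ranged from 93.6 to 299 CPM on vehicle and from 50.4 to 221 on SM08502. The median of the 17 was -0.28 and -0.40, beside 0.05 and 0.03 over all genes.
Calls within a line were most numerous in Ishikawa-S33Y. There 15 of 17 were called lower with SM08502, where 10.6% of all genes were, and 16 with the combination relative to paclitaxel, where 17.4% were. In Ishikawa, SNGM and HEC265 the counts were 6, 1 and 1 with SM08502, where 8.68%, 4.06% and 5.39% of all genes were called lower. With the combination relative to paclitaxel they were 2, 3 and 2, where 6.14%, 6.60% and 6.53% of all genes were. The median difference of the 17 genes was lowest for Ishikawa-S33Y, at -0.89 with SM08502 and -1.21 with the combination. It was -0.28 and -0.07 for Ishikawa, -0.17 and -0.23 for SNGM, and 0.02 and -0.06 for HEC265. The difference between lines was not tested for this list.

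Of the malate-aspartate shuttle, the other route that carries reducing equivalents into mitochondria, 7 genes were tested. With SM08502, 2 rose and 2 fell, where 38.5% of all genes were called. The aspartate transaminases GOT1 (0.35 log2 units) and GOT2 (0.14) rose, and the carriers SLC25A12 (-0.70) and SLC25A11 (-0.16) fell. With the combination relative to paclitaxel the same genes were called in the same directions, and MDH2 also fell by 0.13, where 44.8% of all genes were called. With SM08502 the call of GOT2 was lost in 25 of 41 alternatives (limma adjusted p up to 0.115) and that of SLC25A11 in 12 of 41 (up to 0.114), most of them leaving out 1 library. SLC25A12, the aspartate-glutamate carrier, was lower in 4 of 4 lines, at 20.8 to 28.0 CPM on vehicle and 11.9 to 20.5 on SM08502 (limma adjusted p = 1.82e-08). GOT1 was higher in 4 of 4 lines in both comparisons, but SLC25A11 with SM08502 was lower in 2 lines and higher in 2. Within lines, GOT2 (0.29 and 0.33) and SLC25A11 (-0.60 and -0.68) were called in Ishikawa-S33Y alone, as was MDH2 with the combination (-0.41). In that line 10.6% and 17.4% of all genes were called lower in these comparisons.
In the mean over lines, 2 of 9 other dehydrogenases that, like GPD2, pass electrons to ubiquinone rose in both comparisons, and the other 7 were not called. The share that rose was near the 22.6% and 25.7% of all genes called higher. SQOR, the sulfide oxidising enzyme listed in the table under its older symbol SQRDL, rose by 0.49 with SM08502 and by 0.37 with the combination. DHODH, of pyrimidine synthesis, rose by 0.29 and 0.26. Within lines DHODH was called in Ishikawa-S33Y alone (0.49 and 0.66). SQOR was called with SM08502 in HEC265 (0.98), and with the combination in Ishikawa (0.59), Ishikawa-S33Y (0.54) and HEC265 (0.83). With the combination, 14.4%, 39.4% and 14.9% of all genes were called either way in Ishikawa, Ishikawa-S33Y and HEC265. The 4 succinate dehydrogenase subunits were not called in the mean over lines. Within lines, SDHC was called lower in Ishikawa-S33Y with SM08502 (-0.40) and with the combination relative to paclitaxel (-0.56). In that line 10.6% and 17.4% of all genes were called lower. SDHA was called higher in HEC265 with SM08502 (0.33), where 9.27% of all genes were. In Ishikawa, SDHD was called higher (0.62) and CHDH lower (-0.81) with the combination relative to paclitaxel. There 14.4% of all genes were called either way and 6.14% lower. These genes of single lines were named after their values were seen.

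**Figure D4:**
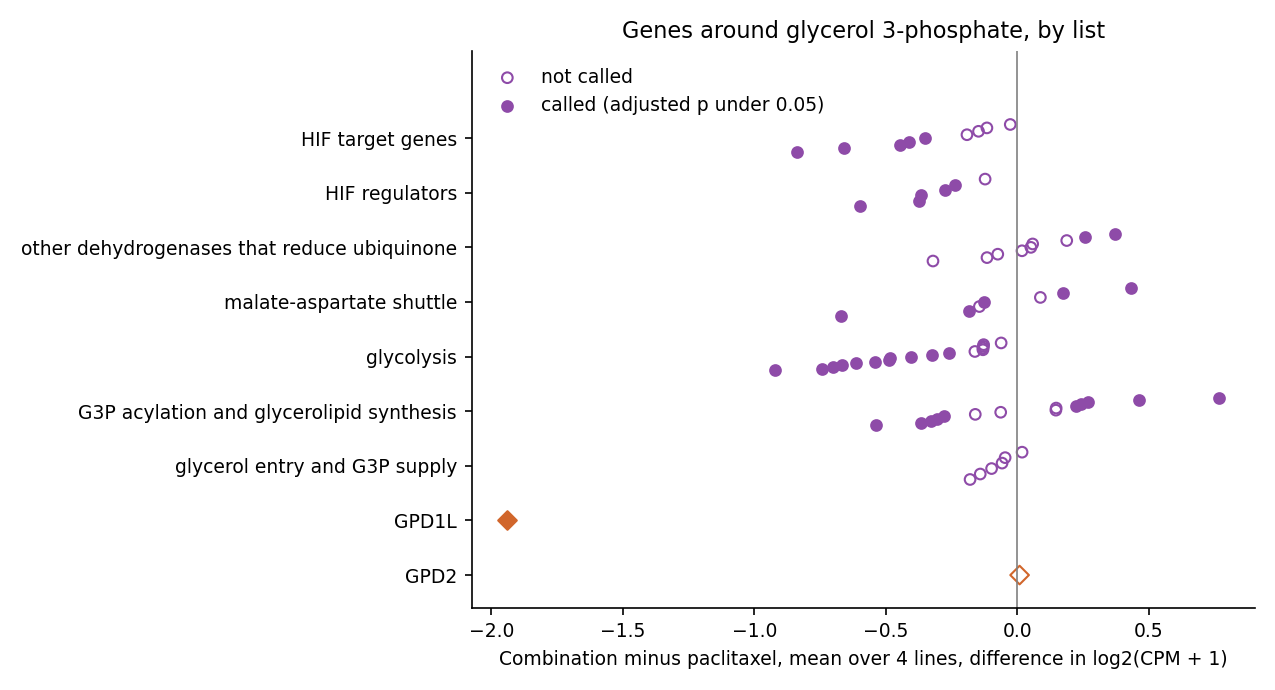
Difference in log2(CPM + 1), combination minus paclitaxel, mean over 4 lines, for each tested gene of 7 lists around glycerol 3-phosphate (circles) and for GPD1L and GPD2 (diamonds). Filled symbols were called by limma at an adjusted p under 0.05. GPD1L lies at -1.94, and the most negative list gene, PFKP, at -0.92.

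GPD1L has been reported to lower HIF1A, the oxygen-regulated transcription factor, by way of its prolyl hydroxylation, and so genes of this pathway were listed. Of 6 HIF regulators, 4 fell with SM08502 and 5 fell with the combination relative to paclitaxel, where 15.8% and 19.1% of all genes were called lower. VHL, which marks hydroxylated HIF1A for degradation, fell by 0.54 and 0.60, the prolyl hydroxylase EGLN3 by 0.49 and 0.37, and HIF1A itself by 0.31 and 0.27. VHL and EGLN3 were lower in 4 of 4 lines in both comparisons.
Of 9 HIF target genes tested, 6 fell with SM08502 and 5 with the combination, beside the same 15.8% and 19.1% of all genes, and the other 3 and 4 were not called. PDK1, a kinase that restrains pyruvate dehydrogenase, fell by 0.89 and 0.84 and was lower in 4 of 4 lines. The peptide hormone gene ADM fell by 0.55 and 0.44, and the mitophagy receptor gene BNIP3 by 0.50 and 0.66. These 2 were higher in 1 or 2 lines in each comparison. In Ishikawa-S33Y 8 of the 9 targets were called lower with SM08502 and all 9 with the combination, where 10.6% and 17.4% of all genes were. In SNGM 4 were called lower with SM08502 and 3 with the combination, where 4.06% and 6.60% of all genes were. In Ishikawa SLC2A1 alone was called, lower with SM08502 (-0.36). In HEC265, PDK1 and VEGFA were called lower in both comparisons, where 5.39% and 6.53% of all genes were. P4HA1 was called higher there in both (0.46 and 0.30) and ANKRD37 with SM08502 (0.83), where 9.27% and 8.39% of all genes were called higher. The difference between lines was not tested, and these genes of single lines were named after their values were seen. The host transcript of miR-210 was not matched in the table.

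The genes whose levels followed GPD1L most closely were found by Pearson correlation over the 32 libraries, after the mean of each line was subtracted, among 12118 genes with a mean log2(CPM + 1) of at least 2. The highest were UROS (r = 0.99), an enzyme of heme synthesis, MTHFD1L (0.98), of mitochondrial folate metabolism, TRPC4AP (0.98), AGBL5 (0.97) and PAM (0.97), which amidates peptides. UROS had a median of 35.8 CPM without SM08502 and 17.4 with it, and PAM 109 and 41.8. The most opposed were USP30 (r = -0.97), a mitochondrial deubiquitinase, NAT6 (-0.97), DNHD1 (-0.97), the elongation kinase CDK9 (-0.96) and C1orf27 (-0.96). CDK9 had a median of 35.6 CPM without SM08502 and 67.5 with it. These coefficients describe 32 libraries that share the treatments, in which a gene that shifts with SM08502 follows GPD1L by that alone. Without both shallow libraries UROS kept the highest coefficient (0.99). The order depended on the measure. By Spearman rank correlation UROS came at rank 29, and the named genes ran from rank 6 (MTHFD1L) to 90 (AGBL5). Those most opposed ran from rank 16 (C1orf27) to 74 (CDK9).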

How the data were processed

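The authors deposited log10 values of CPM plus 1 for 35238 genes in 32 libraries. Per the submitters' processing notes, bcl2fastq, STAR and kallisto were used with GRCh38. Which tool did what, how reads were assigned to genes, with which annotation and on which strand, is not given in the sources used here. Values were taken back to CPM, which summed to 1000000 in each library, and 100% of the low values were whole multiples of 1 read (within 0.02 of a read), which gave the depth. Tables of splicing were not analysed here.

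Groups came from the line, treatment and replicate number in the titles. Genes with CPM above 1 in at least 2 libraries were kept (17011). limma 3.58.1 (R 4.3.3) was fitted to log2(CPM + 1) of all 32 libraries with 1 mean per group and an intensity trend (16 residual degrees of freedom, prior 4.9). P-values were two-sided and adjusted over all kept genes in each comparison by the Benjamini-Hochberg method, and genes were called at an adjusted p under 0.05. Differences on this scale understate the change of low genes. All 3 members passed the filter. The alternatives were other filters, a pseudocount of 0.1, other scalings, no trend, a replicate block, limma voom on the recovered reads, the compared lines alone, and libraries left out. The procedure was tested on simulated data.

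The members, gene lists, tests and alternatives were chosen with earlier results of these data known. The text names the members, up to 3 called genes each way of each list with SM08502, called members where a count is small, genes next to GPD1L and GPD1, and the 5 genes most and least correlated with GPD1L. HYAL3, LRP5 and ITGB5 are named for their rank. Some genes that this rule names are not reported here. Sequences are from RefSeq (GRCh38.p14), whose promoter table held 2 of the 3 members.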

Additional observations from a re-analysis of the deposited data

Results flagged for a closer look

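The combination minus paclitaxel difference in GPD1L was lower in HEC265 than in SNGM by 1.15 log2 units (value -1.15, limma adjusted p = 0.0361), the 1 of 6 pairs of lines whose responses differed by the test of the difference itself in the fit to all libraries. That call was lost with no filter, quantile normalization, limma voom, the compared lines alone, or any 1 of 6 libraries left out. Without both shallow libraries it was lost as well (-0.82, limma adjusted p = 0.0709), and 3 other pairs were called. The HEC265 values fell from 47.7 and 48.6 CPM to 8.78 and 6.69, and the SNGM values from 43.7 and 39.8 CPM to 12.3 and 19.9. The line, the dose of each drug and the depth of 1 SNGM library cannot be told apart here.

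With SM08502 relative to vehicle, both GPD1 replicates lay lower in Ishikawa-S33Y and higher in SNGM and HEC265. The 95% intervals of these differences in log2 units all held 0 (-0.63 to 0.35, -0.21 to 0.77 and -0.19 to 0.79). The share of all genes whose replicates separated in this way was not computed. The SM08502 mean was 78.0% of the vehicle mean for Ishikawa-S33Y, 154% for SNGM and 156% for HEC265. The difference between lines was not tested, and it rests on 10 to 36 reads of GPD1 per library.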

How the results depend on the processing

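The fall of GPD1L with the combination relative to paclitaxel, mean over lines, kept its direction and its call under each alternative run (-2.15 to -1.85), as did the ratio of GPD1L to GPD2 in its direction (-2.03 to -1.89). Of the tests that answer a comparison, 1125 of 1213 recomputed values kept direction and call. Untested differences and counts of called genes have no call, and were judged by how far they moved and not by direction. By that rule 327 of 334 differences and 555 of 574 counts were kept. GPD1 with SM08502 in Ishikawa was among those kept, though it ranged from -0.2565 to 0.01939 with single libraries left out. What follows lists the others, and the cause was not tested. GPD1 rests on at most 37 reads per library. Where a left-out library leaves 1 in its group, that library is assumed to vary like the other groups. The replicate block gave -1.94 for GPD1L (limma adjusted p 9.91e-10) and changed none of 74 results. The numbers were not used as pairs, since the correlation of same-numbered deviations ran from -0.43 to 0.80 in Ishikawa, -0.04 to 0.05 in Ishikawa-S33Y, -0.54 to 0.61 in SNGM and -0.08 to 0.15 in HEC265.

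In the combination minus paclitaxel response of GPD1L, HEC265 minus SNGM was no longer called with no filter (-1.146), quantile normalization (-0.8283), limma voom (-0.9612), the compared lines alone (-1.146) or without both shallow libraries (-0.8203). With single libraries left out it ranged from -1.472 to -0.8203. SNGM minus Ishikawa-S33Y was called with quantile normalization (1.061) and without both shallow libraries (0.8523), and ranged from 0.4798 to 1.178. HEC265 minus Ishikawa-S33Y turned to 0.2329 with quantile normalization and to 0.03202 without both shallow libraries, and ranged from -0.6663 to 0.03202. Ishikawa-S33Y minus Ishikawa (-0.8208) and HEC265 minus Ishikawa (-0.7888) were called without both shallow libraries. In SNGM the call of GPD1L was lost with the compared line alone (-1.356). For SM08502 minus vehicle, GPD1L was at -2.399 in Ishikawa-S33Y with quantile normalization and ranged from -1.709 to -1.107 in SNGM with single libraries left out. Paclitaxel minus vehicle for GPD1L turned to 6.715e-05 with limma voom and ranged from -0.03326 to 0.03284.

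Between lines on vehicle, GPD1L in SNGM minus Ishikawa-S33Y was no longer called after re-centring (-0.4633) or with the compared lines alone (-0.5758), and ranged from -0.708 to -0.4435. SNGM minus Ishikawa was called with limma voom (-0.4558) and without both shallow libraries (-0.4436), and ranged from -0.5758 to -0.3114. HEC265 minus Ishikawa turned to 0.05838 after re-centring.

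For GPD2, the combination minus paclitaxel difference in HEC265 turned to -0.008647 after re-centring. The mean over lines turned to -0.00773 with quantile normalization, -0.03153 with limma voom and -0.083 without both shallow libraries, and ranged from -0.05233 to 0.06954. In Ishikawa-S33Y it was called with the compared line alone (-0.2339) and without both shallow libraries (-0.3566). In SNGM it turned to -0.08248 without both shallow libraries and ranged from -0.08248 to 0.405, and in Ishikawa it ranged from -0.06438 to 0.1891. Combination minus SM08502 ranged from -0.08181 to 0.04005. On vehicle HEC265 minus Ishikawa turned to -0.05219 with quantile normalization.

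For GPD1 on vehicle, the call of Ishikawa-S33Y minus Ishikawa was lost with a pseudocount of 0.1 (-1.302) and ranged from -0.9058 to -0.6299. SNGM minus Ishikawa was lost with that pseudocount (-1.369) and quantile normalization (-0.4603), and ranged from -0.9372 to -0.6613. HEC265 minus Ishikawa turned to 0.002779 with quantile normalization and ranged from -1.041 to -0.6677. After re-centring and with quantile normalization, SNGM minus Ishikawa-S33Y turned to 0.08103 and 0.2332 (-0.0716 to 0.008805 with single libraries left out). HEC265 minus Ishikawa-S33Y turned to 0.09924 and 0.6963 (-0.2734 to 0.1001), and HEC265 minus SNGM to 0.0182 and 0.4631 (-0.242 to 0.1315). GPD1 with SM08502 moved to 0.5356 in SNGM and 0.6297 in HEC265 with the pseudocount, and to 0.5896 and 0.7297 with limma voom. For the combination minus paclitaxel, Ishikawa-S33Y turned to -0.01572 with the pseudocount, -0.1067 with quantile normalization, -0.164 with limma voom and -0.1746 without both shallow libraries, and ranged from -0.1746 to 0.1812. HEC265 was called with limma voom (1.235) and without both shallow libraries (0.5609), as was Ishikawa in the latter (-0.6473). SNGM ranged from -0.9817 to -0.09179 and the mean from -0.2662 to -0.04373.

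Of the lists, glycerol entry had 1 gene called in the combination comparison with limma voom, and 1 in both comparisons without both shallow libraries. With single libraries left out, its count ranged from 0 to 1, that of the acylation list with SM08502 from 5 to 10, that of the malate-aspartate shuttle with SM08502 from 2 to 5, and that of the ubiquinone dehydrogenases with the combination from 2 to 4. CMTM7 turned to -0.001042 after re-centring and -0.000445 with quantile normalization for SM08502. With single libraries left out it ranged from -0.01151 to 0.04003, and from -0.03783 to 0.03327 for the combination.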
